A study of Mus musculus with 16 samples.

Results

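Glutathione synthesis and the glutathione peroxidases were followed through 9 genes in cultured mouse hepatocytes: *Gclc*, *Gclm*, *Gss*, *Gsr*, *Slc7a11*, *Gpx1*, *Gpx3*, *Gpx4* and *Glrx*. They were chosen by gene symbol from the 55450 genes of the count table, and each symbol matched 1 gene. RNA was sequenced in bulk from hepatocytes isolated from the livers of wild-type mice and cultured overnight. The study asked how itaconate, a metabolite that activated macrophages make from *cis*-aconitate, changes the handling of lipid by hepatocytes. Of the 4 treatment groups, 1 was left untreated, 1 received 10 mM sodium itaconate, 1 received a chemically defined mixture of fatty acids and cholesterol at a 10-fold dilution (lipid), and 1 received both (lipid + itaconate). All groups shared the same complete medium, which holds serum and an insulin, transferrin and selenium supplement. The 4 libraries of a group are named A to D, and every letter occurs once in each treatment. The labels do not say whether a letter is an animal or a culture. In the main model, the p-values below measure the spread left between libraries once differences between letters are removed, over all 4 groups together. That spread may be technical.

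Glutathione is a tripeptide of glutamate, cysteine and glycine that hepatocytes keep at high concentration. Cystine enters the cell through Slc7a11, glutamate-cysteine ligase (Gclc with Gclm) joins glutamate to cysteine, and glutathione synthetase (Gss) adds glycine. Glutathione peroxidases spend reduced glutathione on hydrogen peroxide and lipid peroxides, glutaredoxin (Glrx) spends it on protein disulfides, and glutathione reductase (Gsr) returns the oxidized form to the reduced one with NADPH.

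Library depth was alike between groups. Untreated libraries held 22346049 to 28619798 expected counts (median 27967435) and itaconate-treated libraries 27211869 to 35512004 (median 28467578). Those given lipid held 23562859 to 28558693 (median 24695330), and those given both held 25812579 to 35378517 (median 27793096). Levels are given below as CPM, the count divided by the library's TMM-normalized size on the scale of 1e+06 counts, and changes as log2 ratios from edgeR's quasi-likelihood test with the replicate letter in the model. A change was called at an adjusted p under 0.05. One library stood apart before any comparison was made. Lipid + itaconate replicate B differed from the other 3 libraries of its group by 106 to 147 times counting noise (chi-square per gene), while the other 21 pairs of same-group libraries differed by 10.0 to 64.5 times. Calls of the glutathione genes, and those of the other pathway genes with itaconate, are therefore also given without it where its absence changes them.

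The hepatocyte label was checked against marker genes. Of 10 hepatocyte markers, 9 were found by symbol, and they summed to 46616 ± 7330 CPM (SD, n = 4) untreated, 47556 ± 7324 with itaconate, 40502 ± 5612 with lipid and 42048 ± 9040 with both. *Alb*, the gene of serum albumin, was the most abundant at 33454 CPM over the 16 libraries. Lipid lowered 3 of the 9 without itaconate (*Fgb* by 0.41, *Ttr* by 0.20 and *Alb* by 0.18 on the log2 scale), and with itaconate present it lowered 6 and raised 1. These are 33.3% of the markers beside 47.5% of all genes called with lipid alone, and 77.8% beside 47.0% with itaconate present. Without lipid + itaconate replicate B, 6 were lower with lipid alone (66.7% beside 48.6%), and 7 lower and 1 higher with itaconate present (88.9% beside 45.3%). Without the replicate letter 1 was lower in each comparison (11.1% beside 35.5% and 34.2%), and *Ttr* and *Alb* were no longer called.

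Lipid alone moved most of the glutathione genes tested downward, with the replicate letter in the model. Against untreated hepatocytes, lipid-treated hepatocytes had lower *Gclc*, *Gpx1*, *Gsr*, *Glrx* and *Gclm* and slightly higher *Gss*, which is 6 of the 8 genes that passed the filter on low counts (75.0%), where 47.5% of all 11675 genes tested were called. For the 5 that fell, the background of lower calls was 23.7%, and for the 1 that rose the background of higher calls was 23.8%. The median change of the 8 genes was −0.21 on the log2 scale, and that of all genes was 0.00. In the presence of itaconate, lipid lowered *Gpx1*, *Gclc* and *Gsr* and raised *Gpx4*. These were 4 of 8 genes, beside 47.0% of all genes called, with 23.5% in each direction. The median change there was −0.04, and that of all genes was 0.00. The 4 genes called are close to the share among all genes. The 6 called without itaconate are above it with the replicate letter in the model. Without the letter, lipid alone called 3 of the 8 genes (37.5%), close to the 35.5% of all genes. Lipid in the presence of itaconate then called 2 (25.0%) beside 34.2%. All of these calls were lower, where 17.4% of all genes were called lower with lipid alone and 16.1% with itaconate present.

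Itaconate moved fewer of them. Without lipid it lowered *Slc7a11* and called no other of the 8 genes, where 4.91% of all genes were called, 1.96% upward and 2.95% downward. This call was not made in a model lacking the letter, and leaving out single libraries gave 0 or 1 calls. Over all genes these settings called 23 (0.197%) and 149 to 1047. Without a filter, 3 of the 8 genes were called (1091 of all genes), and with only the 8 libraries compared also 3 (1865 of all genes). With lipid, itaconate raised *Gclc*, *Glrx* and *Gsr*, which is 3 of 8 genes, where 2.58% of all genes were called, 1.32% upward and 1.26% downward. None of these 3 calls was made in a model lacking the letter or in a fit of just the 8 libraries compared, and leaving out single libraries gave between 0 and 5 calls among the 8 genes (1 call without lipid + itaconate replicate B). Over all genes the model lacking the letter called 9 (0.0771%) and the fit of just the 8 libraries 13. Leaving out single libraries called 59 to 889 of all genes (1.15% without lipid + itaconate replicate B). Medians of the 8 changes were 0.00 and 0.09, beside −0.00 on this scale for all genes in both comparisons. No member passed edgeR's test of the interaction, which asks whether the itaconate effect differs with lipid (0 of 8 by edgeR, 1 of 8 at an unadjusted p under 0.05, and 1 of 8 by DESeq2). Of all 11675 genes, edgeR's test of it called 1 (0.00857%), and DESeq2 called 36 of the 8732 to which it gave an adjusted p (0.412%). The comparisons are not independent, because lipid against untreated shares its lipid-treated libraries with lipid + itaconate against lipid, and its untreated libraries with itaconate against untreated.

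**Figure D1:**
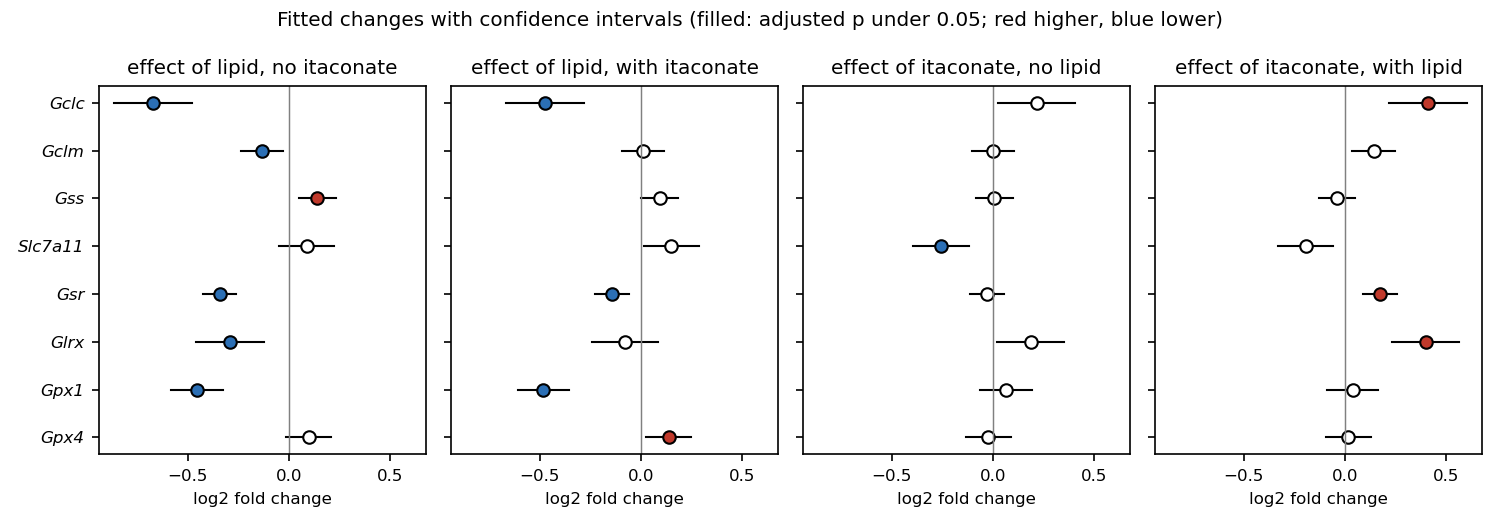
Log2 fold change (horizontal axis) of the 8 glutathione genes tested (vertical axis) in the 4 comparisons, with 95% intervals from edgeR's fit, where filled points passed an adjusted p under 0.05. *Gclc* and *Gpx1* lie farthest to the left in both lipid comparisons, and *Gclc* and *Glrx* farthest to the right where itaconate was added to lipid.

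The levels of the genes spanned a wide range. Per kilobase of exon, so that genes of different length can be compared, *Gpx1* was the most abundant at 588 CPM per kilobase (mean over the 16 libraries). Next came *Gclc* at 218, *Gsr* at 164, *Gpx4* at 160.3, *Gclm* at 42.0, *Gss* at 17.9, *Glrx* at 12.1 and *Slc7a11* at 4.85 CPM per kilobase. *Gpx3* was close to absent at 0.282 CPM per kilobase.

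**Figure D2:**
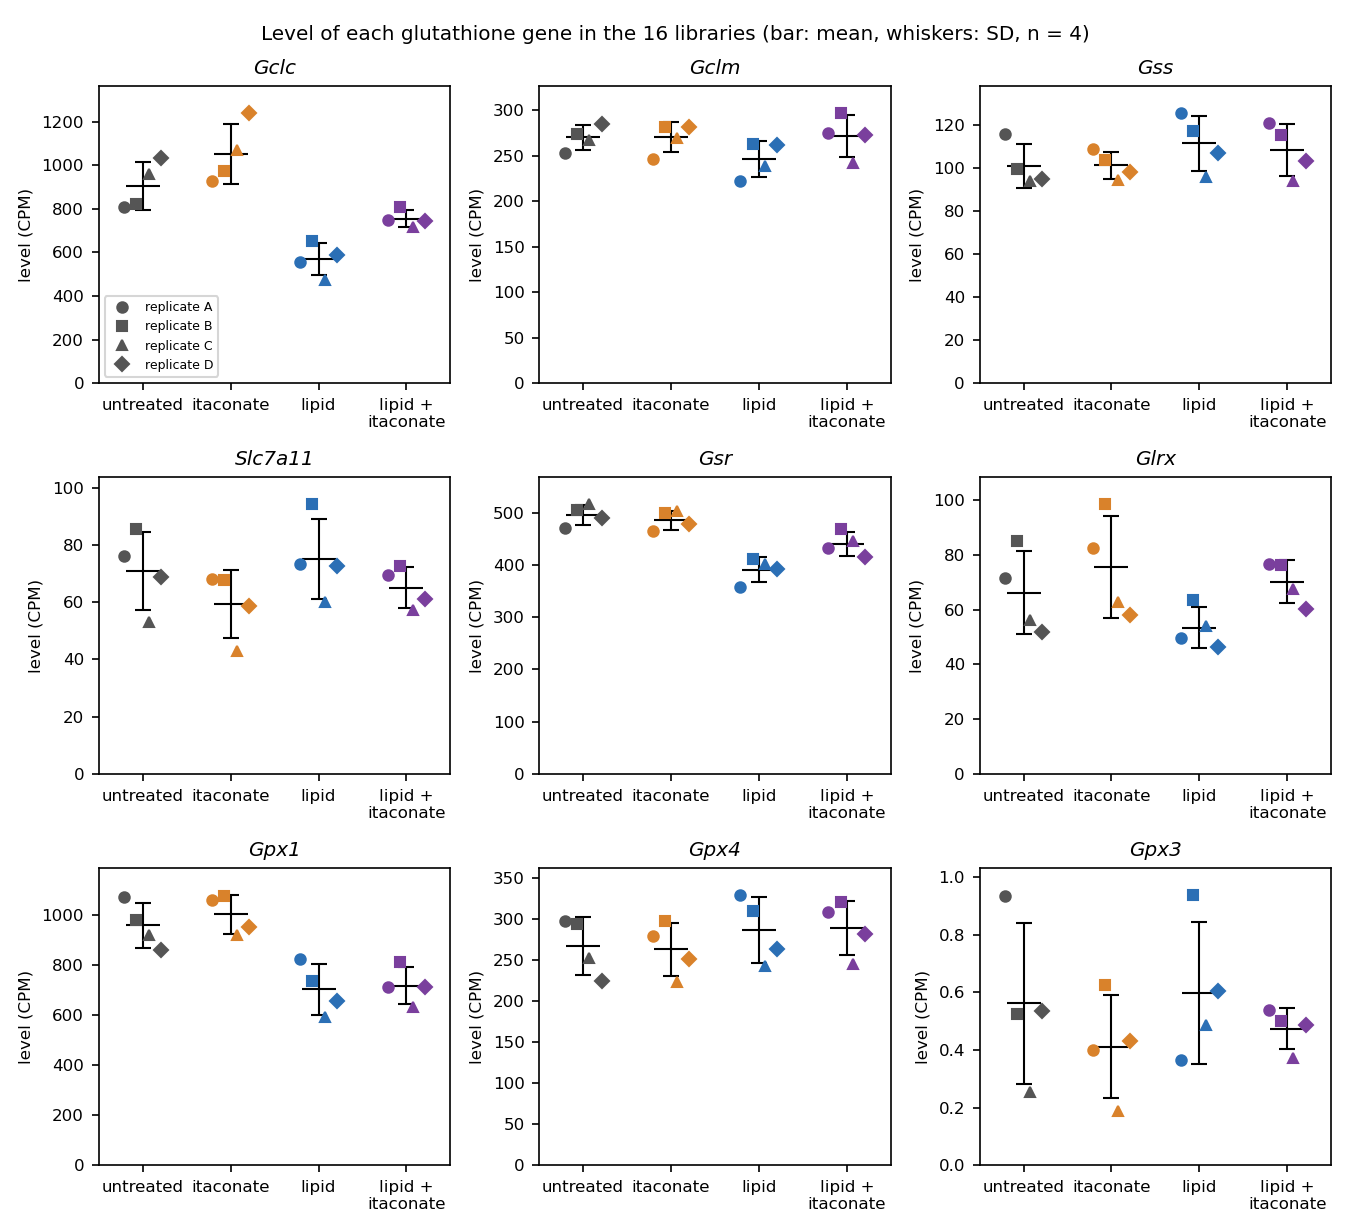
Level in CPM (vertical axes, from 0) of each glutathione gene in the 16 libraries by treatment (horizontal axes), where the marker shape gives the replicate letter and the bars and whiskers give mean and SD (n = 4). The lipid-treated libraries of *Gclc* and *Gsr* lie below the libraries of all other groups, and replicate A is the highest and C the lowest library of every group in *Gss*.

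*Slc7a11* encodes the cystine-glutamate exchanger that brings cystine into the cell (chromosome 3, 49892526 to 50443614, minus strand, GRCm38). In untreated hepatocytes its level was 76.2, 85.5, 53.1 and 68.7 CPM in replicates A to D. Itaconate-treated hepatocytes had 68.1, 67.7, 42.9 and 58.5 CPM. In each letter the itaconate-treated library was the lower one, and the ranges of the groups overlapped because the letters differ by more than the treatment. The fitted change was −0.26 (SE 0.06, edgeR, adjusted p = 0.0317, 95% interval of the change −23.8% to −8.00%), a level that fell by 16.3%. Lipid-treated hepatocytes had 73.3, 94.3, 60.2 and 72.6 CPM, and lipid + itaconate-treated ones 69.6, 72.5, 57.1 and 61.2 CPM. There too every letter was lower with itaconate, by −0.20 on the log2 scale (SE 0.06, edgeR, adjusted p = 0.120), which did not pass. Lipid gave changes of 0.09 without itaconate (adjusted p = 0.274) and 0.15 with it (adjusted p = 0.0674), neither of which passed. In order of mean level the groups were lipid (75.1 ± 14.1 CPM, SD), untreated (70.9 ± 13.7), lipid + itaconate (65.1 ± 7.15) and itaconate (59.3 ± 11.8), and no neighbours in this order differed beyond their spread.

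The *Slc7a11* call was kept in 14 of 21 alternatives. Without the letter in the model its adjusted p was 0.527, and it was 0.111, 0.101 and 0.0856 without untreated replicate A, B or D and 0.108, 0.149 and 0.0680 without itaconate replicate B, C or D. Added to lipid, the fall was called without lipid + itaconate replicate C (−0.26, adjusted p = 0.0144) and without the filter on low counts (−0.19, adjusted p = 0.0290). The rise with lipid in the presence of itaconate was called without itaconate replicate A (adjusted p = 0.0321), without lipid + itaconate replicate B (0.0337) and without the filter (0.15, adjusted p = 0.0381).

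The 250 bases before the start site of *Slc7a11* (RefSeq, GRCm38.p6, chr3:50443614-50443863, minus strand) are shown because this window holds a motif searched for in the promoters of the glutathione genes. Capitals mark TGATGNAA, the core of the C/EBP-ATF response element that the amino acid stress factor Atf4 is known to bind, at bases 185 to 192 on the strand shown and at 204 to 211 on the opposite strand.
Slc7a11: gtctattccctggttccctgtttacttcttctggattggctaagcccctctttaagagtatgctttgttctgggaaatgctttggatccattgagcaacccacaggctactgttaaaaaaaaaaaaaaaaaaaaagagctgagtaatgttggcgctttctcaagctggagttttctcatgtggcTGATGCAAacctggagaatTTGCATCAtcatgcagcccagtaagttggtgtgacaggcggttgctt
Of 32851 promoter windows of the same length, 3.45% hold this motif on either strand. Windows were found for 7 of the 9 genes, 11 in all, and no other member's window holds it. A match is a description of the letters and not evidence of binding. The reference targets and factors of Atf4 and of Nrf2, the regulator of antioxidant genes, are described with the other lists below.

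*Gclc* encodes the catalytic subunit of glutamate-cysteine ligase, the rate-limiting enzyme of glutathione synthesis (chromosome 9, 77754535 to 77794485, plus strand). Untreated hepatocytes had 808, 823, 963 and 1035 CPM in replicates A to D, and lipid-treated ones had 557, 654, 475 and 590.2 CPM. All lipid-treated libraries were lower than all untreated ones. The level fell by 37.2% (log2 −0.67, SE 0.09, edgeR, adjusted p = 2.60e-05), and this call held in all 21 alternatives. With itaconate alone *Gclc* was at 931, 973, 1072 and 1241 CPM, higher than untreated in each letter with overlapping ranges, a change of 0.22 (SE 0.09, edgeR, adjusted p = 0.182) that did not pass. Hepatocytes given lipid + itaconate had 751, 808, 715 and 745 CPM. Each of these libraries was above every lipid-treated library and below every itaconate-treated one. Itaconate thus raised *Gclc* in lipid-treated hepatocytes by 33.0% (log2 0.41, SE 0.09, 95% interval 16.4% to 51.9%, edgeR, adjusted p = 0.0278). Lipid lowered it in itaconate-treated hepatocytes by −0.48 on the log2 scale (SE 0.09, adjusted p = 0.000586), and this call too held in all 21 alternatives. The order of mean levels was itaconate (1054 ± 138 CPM, SD), untreated (907 ± 110.4), lipid + itaconate (755 ± 38.9) and lipid (569 ± 74.8), and only the last pair of neighbours had ranges that did not overlap.

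The rise of *Gclc* with itaconate in lipid-treated hepatocytes kept its direction in all 21 alternatives and its call in 14. It was lost without the letter (adjusted p = 0.191), with only the 8 libraries compared (0.0879), without lipid replicate A (0.0541), C (0.0808) or D (0.0973) and without lipid + itaconate replicate A (0.113) or B (0.0813). The change with itaconate alone was called in 2 alternatives, without a filter on low counts (0.000943) and with only the 8 libraries compared (0.000719).

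*Gclm* encodes the modifier subunit that raises the affinity of the ligase for its substrate (chromosome 3, 122245557 to 122270732, plus strand). Untreated hepatocytes had 253, 274, 268 and 285 CPM and lipid-treated ones 222, 263, 239 and 262 CPM. Each letter was lower with lipid, the ranges overlapped, and the level fell by 8.82% (log2 −0.13, SE 0.05, edgeR, adjusted p = 0.0362). Itaconate alone gave 247, 282, 269.5 and 282 CPM, a change of −0.00 (95% interval −7.06% to 7.44%). Lipid + itaconate gave 275, 297, 241 and 273 CPM, higher than lipid alone in each letter by 0.14 on the log2 scale (SE 0.05, adjusted p = 0.148), which did not pass. Group means were 271 ± 22.8 (lipid + itaconate), 270.0 ± 13.4 (untreated), 269.9 ± 16.5 (itaconate) and 247 ± 19.7 CPM (lipid), with overlap between all neighbours. The fall with lipid was not called without the letter (adjusted p = 0.159), without a filter (0.0802), without untreated replicate A (0.0684), C (0.110) or D (0.0901) or without lipid replicate A (0.127), B (0.0564) or C (0.0578), and the rise with itaconate in lipid-treated hepatocytes was called without lipid + itaconate replicate C (0.0195). *Gclm* had counts that were not whole in all 16 libraries, so that reads were shared with other genes. It overlaps the pseudogene *Gm6061* on the same strand, which had 0.631 CPM.

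The window before the start site of *Gclm* (RefSeq, GRCm38.p6, chr3:122245307-122245556, plus strand) is the only one of the 11 that holds TGACNNNGC, the core of the antioxidant response element bound by Nrf2. Capitals mark it at bases 117 to 125, where it reads TGACGGTGC on the strand opposite to the one shown.
Gclm: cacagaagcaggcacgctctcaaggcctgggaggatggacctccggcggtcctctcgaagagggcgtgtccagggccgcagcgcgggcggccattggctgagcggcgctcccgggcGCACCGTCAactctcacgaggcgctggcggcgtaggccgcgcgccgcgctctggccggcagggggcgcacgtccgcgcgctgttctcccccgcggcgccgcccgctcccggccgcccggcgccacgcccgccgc
Of all 32851 windows of this length, 10.2% hold the motif on either strand. Windows of *Gclc* and *Gsr* were not analysed here.

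*Gss* encodes glutathione synthetase, which completes the tripeptide (chromosome 2, 155563181 to 155592810, minus strand). Its level was 116, 99.9, 94.1 and 95.0 CPM untreated, 109, 104, 94.8 and 98.3 CPM with itaconate, 126, 118, 96.0 and 107 CPM with lipid, and 121, 116, 94.1 and 104 CPM with both. Replicate A was the highest and C the lowest in every group. Lipid raised *Gss* by 10.1% (log2 0.14, SE 0.04, edgeR, adjusted p = 0.0145), higher in 4 of 4 letters with overlapping ranges. The call was lost without the letter (0.250), without untreated replicate B (0.0682) or D (0.0509). With itaconate present the change was 0.09 (adjusted p = 0.0864), which was called without lipid + itaconate replicate C (0.0492). Itaconate gave changes of 0.01 without lipid (95% interval −5.72% to 6.99%) and −0.04 with it (−8.66% to 3.60%), and neither passed. No neighbouring groups in the order of means, from 112 ± 12.9 CPM with lipid to 101 ± 10.3 CPM in untreated hepatocytes, differed beyond their spread. *Gss* overlaps *Acss2* on the opposite strand, which was at 37.4 CPM. The libraries were made with a stranded kit, while the strand setting of the counting was not given in the sources used here.

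*Gsr* encodes glutathione reductase, which regenerates reduced glutathione (chromosome 8, 33652523 to 33698163, plus strand). Untreated hepatocytes had 471, 505, 516 and 489.7 CPM and lipid-treated ones 357, 411, 402 and 393 CPM. The groups did not overlap, and the level fell by 21.2% (log2 −0.34, SE 0.04, edgeR, adjusted p = 5.32e-06) in all 4 letters and in all 21 alternatives. Itaconate alone gave 464, 498, 503 and 477 CPM, slightly lower than untreated in each letter (−0.03, 95% interval −7.50% to 3.81%), which did not pass. Lipid + itaconate gave 433, 468, 445 and 415 CPM. All of these were above all lipid-treated libraries, a rise of 12.7% (log2 0.17, SE 0.04, 95% interval 6.34% to 19.4%, edgeR, adjusted p = 0.0326). Lipid in the presence of itaconate lowered *Gsr* by −0.14 on the log2 scale (SE 0.04, adjusted p = 0.00789), in 4 of 4 letters. In order the means were 495 ± 19.6 (untreated), 486 ± 18.2 (itaconate), 440.1 ± 22.3 (lipid + itaconate) and 391 ± 23.4 CPM (lipid), where the last pair alone had ranges that did not overlap.

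The call of the *Gsr* rise with itaconate in lipid-treated hepatocytes held in 11 of 21 alternatives with 1 direction in all. Without the letter its adjusted p was 0.311 and with only the 8 libraries compared 0.300. It was also lost without replicate A of each group in turn (0.0520 for untreated, 0.0501 for itaconate, 0.108 for lipid and 0.122 for lipid + itaconate), without lipid replicate B (0.0587), C (0.0754) or D (0.0653) and without lipid + itaconate replicate B (0.0894). The fall with lipid in the presence of itaconate was lost without the letter (0.0579).

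*Gpx1* encodes the most abundant of the peroxidases, a cytosolic and mitochondrial selenoprotein that reduces hydrogen peroxide (chromosome 9, 108338903 to 108340343, plus strand). Untreated hepatocytes had 1074, 983, 921 and 863 CPM and itaconate-treated ones 1061, 1080, 923 and 953 CPM. With lipid the levels were 826, 737, 593 and 658 CPM, and with lipid + itaconate 714, 815, 632 and 714 CPM. Every library given lipid was below every library that was not. With lipid *Gpx1* fell by 27.1% without itaconate (log2 −0.46, SE 0.06, edgeR, adjusted p = 2.08e-05) and fell by 28.4% with it (log2 −0.48, SE 0.06, edgeR, adjusted p = 1.39e-05), and both calls held in all 21 alternatives. Itaconate gave changes of 0.06 without lipid (95% interval −4.24% to 14.2%) and 0.04 with it (−6.06% to 12.1%), and neither passed. The means were 1004 ± 77.8 (itaconate), 960.4 ± 90.2 (untreated), 719 ± 74.6 (lipid + itaconate) and 703 ± 100.8 CPM (lipid), and the step between untreated and lipid + itaconate was the only one without overlap.

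*Gpx4* encodes the selenoprotein that reduces lipid hydroperoxides within membranes and is known for holding off ferroptosis (chromosome 10, 80047166 to 80056439, plus strand). Its level was 297, 294, 252 and 225 CPM untreated, 279, 298, 224 and 251 CPM with itaconate, 329, 310.4, 243 and 263 CPM with lipid, and 308, 321, 246 and 281 CPM with both. The ranges of all groups overlapped. *Gpx4* did not follow *Gpx1*. Lipid gave a change of 0.10 without itaconate (95% interval −0.895% to 15.6%, adjusted p = 0.135), which did not pass, and raised it by 10.0% with itaconate (log2 0.14, SE 0.05, edgeR, adjusted p = 0.0405), in 4 of 4 letters. The second call was lost without the letter (0.387), with RLE normalization (0.0574), without untreated replicate A (0.0612), without itaconate replicate A (0.145), B (0.0652) or C (0.119) and without lipid + itaconate replicate B (0.0720) or D (0.159), and the first change was called without untreated replicate C (0.0294). Itaconate gave −0.02 without lipid (−8.91% to 6.27%) and 0.02 with it (−6.35% to 9.23%), and neither passed. Group means ran from 263 ± 32.4 CPM with itaconate to 289 ± 33.4 CPM with lipid + itaconate, and no neighbours differed beyond their spread. *Gpx4* had counts that were not whole in all 16 libraries, and the processed pseudogene *Gpx4-ps2* on the same chromosome held counts that came to 4.65% of its own, so that the split between the 2 is uncertain.

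*Gpx3* encodes the secreted peroxidase of plasma, which the kidney is known to supply (chromosome 11, 54902453 to 54910377, plus strand). Untreated libraries A to D held 20, 15, 7 and 15 expected counts of it, those with itaconate 11, 17, 5 and 15, those with lipid 9, 25, 12 and 18, and those with both 19, 13, 11 and 13. The groups overlapped throughout. At a mean of 0.512 CPM it did not pass the filter of 1 CPM, and in edgeR's fit without a filter its changes ran from −0.42 to 0.26 with standard errors of 0.40 to 0.41, so that no difference was detectable at this depth.

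*Glrx* encodes glutaredoxin 1, which removes glutathione from protein thiols (chromosome 13, 75839868 to 75850154, plus strand). Untreated hepatocytes had 71.6, 85.2, 56.4 and 51.7 CPM, and lipid-treated ones 49.8, 63.7, 53.9 and 46.2 CPM. Each letter was lower with lipid and the ranges overlapped. *Glrx* fell by 18.3% (log2 −0.29, SE 0.08, edgeR, adjusted p = 0.00665), a call that was kept in 20 of 21 alternatives and lost without the letter (0.166). Itaconate alone gave 82.5, 98.6, 62.9 and 58.0 CPM, higher in 4 of 4 letters by 0.19 (SE 0.08, adjusted p = 0.179), which did not pass. It was called without a filter (0.0199) and with only the 8 libraries compared (0.00546). Lipid + itaconate gave 76.5, 76.4, 67.6 and 60.4 CPM, above lipid alone in each letter, although its lowest library lay below the highest of the lipid-treated ones. This rise was 31.7% (log2 0.40, SE 0.08, 95% interval 17.4% to 47.9%, edgeR, adjusted p = 0.0175). It was lost without the letter (0.453), with only the 8 libraries compared (0.111), without lipid replicate A (0.0629) and without lipid + itaconate replicate A (0.0765) or D (0.0557). In the presence of itaconate, lipid gave −0.08 (95% interval −15.6% to 5.99%), which did not pass. The order of means was itaconate (75.5 ± 18.7 CPM), lipid + itaconate (70.2 ± 7.79), untreated (66.2 ± 15.2) and lipid (53.4 ± 7.54), with overlap between all neighbours.

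**Figure D3:**
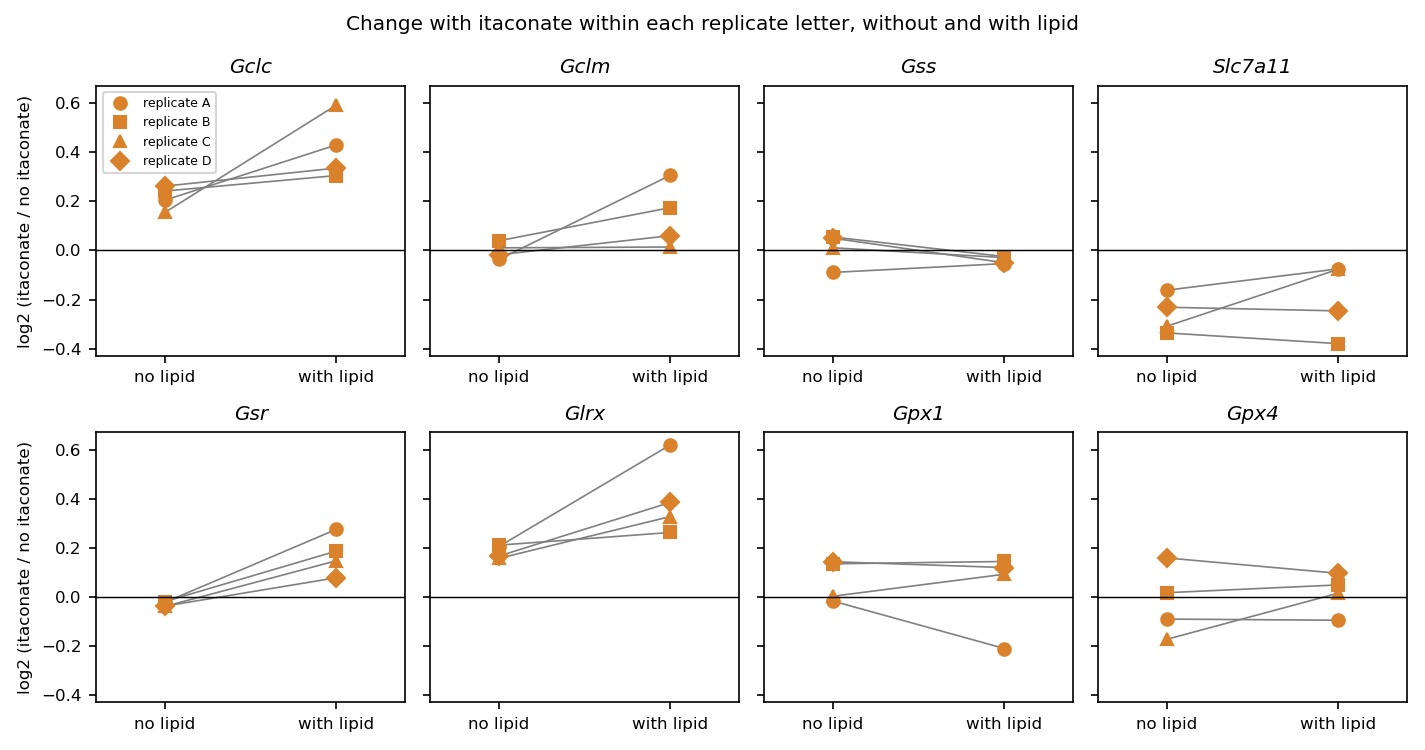
Log2 ratio of the library with itaconate to the library without it (vertical axis) within each replicate letter, without and with lipid (horizontal axis), for the 8 genes tested; lines join the same letter. *Gclc* and *Glrx* lie above 0 and *Slc7a11* below 0 in every letter in both settings, and *Gsr* changes from slightly below 0 to above 0 in every letter.

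Within letters, the itaconate ratios showed the same signs for *Gclc*, *Glrx* and *Slc7a11* whether or not lipid was present. For *Gsr* they did not. Its log2 ratios without lipid were −0.02, −0.02, −0.04 and −0.04 in replicates A to D, and with lipid they were 0.28, 0.19, 0.15 and 0.08. The interaction was 0.20 (SE 0.06, unadjusted p = 0.00232, edgeR, adjusted p = 0.290), so that the difference did not pass the test over all genes, and DESeq2 gave an adjusted p of 0.0477. The interaction of *Glrx* was 0.21 (SE 0.11, adjusted p = 0.616), and that of *Gclc* was 0.20 (SE 0.13, adjusted p = 0.714).

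The genes also differed in how they varied together over the 16 libraries once the mean of each letter had been removed. Pearson's r was 0.91 between *Gclc* and *Gsr*, 0.84 between *Gclc* and *Gpx1* and 0.83 between *Gsr* and *Gpx1*. *Gss* and *Gpx4* went together (r = 0.72) and against this group, with −0.76 between *Gss* and *Gsr* and −0.64 between *Gsr* and *Gpx4*. *Slc7a11* went against *Gclc* (r = −0.68). With the letter means left in, these values were 0.84, 0.72, 0.66, 0.87, −0.53, −0.35 and −0.36 in the order given. For *Gpx1* with *Gss* and *Gpx4*, r was −0.68 and −0.54 with the letter means removed, and 0.03 and 0.13 with them left in. These are descriptions over 16 libraries that share 4 treatments. By r with the letter means removed, among 9359 genes of at least 5 CPM, the pattern of *Gclc* was most like that of *Syf2* (r = 0.98), *Ywhaq* and *Ubb*. For *Gsr* the nearest were *Esd* (r = 0.98), *Dazap2* and *Cds2*, for *Gpx1* *Cdc42ep1* (r = 0.98), *Nnmt* and *Acadl*, and for *Slc7a11* *Ccng1* (r = 0.95), *Wdr11* and *Isoc1*. *Gclm* was nearest to *Gulo* (r = 0.94), *Mapkapk2* and *Arl6ip1*, *Gss* to *Psmb1* (r = 0.95), *Ndufa8* and *Sap30bp*, *Gpx4* to *BC031181* (r = 0.93), *Plekhf1* and *Tmem14c*, and *Glrx* to *Ptprf* (r = 0.93), *Dppa3* and *Usp35*. The counts of *Gpx3* are too few for its nearest genes (*Dusp5*, *Dnajc8* and *Isoc1*, r = 0.85 for the first) to be read as a pattern.

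The genes around this core were taken as 8 further lists, with 91 genes tested in all. Lipid alone raised 21 of them and lowered 36, which is 62.6% beside 47.5% of all genes, and with itaconate present it raised 19 and lowered 35 (59.3% beside 47.0%). Itaconate alone raised 1 and lowered 2 (3.30% beside 4.91%), and added to lipid it raised 4 and lowered 1 (5.49% beside 2.58%). Without lipid + itaconate replicate B, itaconate alone raised 5 and lowered 3 (8.79% beside 6.17%) and itaconate added to lipid raised 1 of the 91, beside 1.15% of all genes. The first share thus went from below to above that of all genes, and the second fell from above it to slightly below. In the model lacking the letter lipid called 43 of the 91 genes (47.3% beside 35.5%) and, with itaconate present, 36 (39.6% beside 34.2%). Itaconate called none of them there, beside 0.197% of all genes without lipid and 0.0771% with it. The median changes with lipid were −0.08 and −0.07.

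NADPH supply, on which Gsr depends, had the highest share of lower calls among the 8 lists with lipid alone. Lipid lowered 7 of its 9 genes and raised 1 (88.9% called beside 47.5% of all genes), with a median of −0.28 on the log2 scale. *Idh1*, the cytosolic isocitrate dehydrogenase, fell by 0.69 (SE 0.05), *G6pdx*, the entry enzyme of the pentose phosphate pathway, fell by 0.34 (SE 0.08), and *Idh2*, the mitochondrial isocitrate dehydrogenase, rose by 0.36 (SE 0.06). With itaconate present 5 were lower and 1 higher (66.7% beside 47.0%), *Idh1* at −0.49. *G6pdx* was not called there (−0.02, edgeR, adjusted p = 0.869). In the model lacking the letter 77.8% of the list were called with lipid alone, beside 35.5% of all genes, but with itaconate present 2 were lower and 1 higher (33.3% beside 34.2%). Itaconate alone lowered *Taldo1*, transaldolase, by 0.20 (SE 0.04, edgeR, adjusted p = 0.0150).

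Among 16 other enzymes of peroxide and superoxide removal, lipid lowered 9 and raised 3 (median −0.17, 75.0% called beside 47.5% of all genes). *Sod2*, the mitochondrial superoxide dismutase, fell by 0.55 (SE 0.04) and *Txnrd1*, the thioredoxin reductase of the cytosol, fell by 0.46 (SE 0.04), while *Aifm2*, a ferroptosis suppressor that acts beside Gpx4, rose by 0.39 (SE 0.06). Itaconate added to lipid raised *Sod2* by 0.22 (SE 0.04, edgeR, adjusted p = 0.0105) and *Prdx1*, a peroxiredoxin, by 0.18 (SE 0.04, adjusted p = 0.0350), and with itaconate present lipid lowered 7 and raised 4 (68.8% beside 47.0%). Shares without the letter were 56.2% beside 35.5% and 37.5% beside 34.2%. Of 8 other glutathione peroxidases, glutaredoxins and glutathione-using hydrolases tested, lipid raised 2 and lowered 3 (median −0.08, 62.5% beside 47.5%). *Gpx7*, a peroxidase of the endoplasmic reticulum, rose by 0.73 (SE 0.24), *Glrx5*, a mitochondrial glutaredoxin, rose by 0.22 (SE 0.06), and *Esd*, an S-formylglutathione hydrolase, fell by 0.30 (SE 0.04). With itaconate present 1 was higher and 4 were lower (62.5% beside 47.0%), and the share was 50.0% in both settings without the replicate letter. The higher one was *Glrx5*, at 0.16 (edgeR, adjusted p = 0.0284). That call was lost without lipid + itaconate replicate B (0.0952) or without the letter (0.0508).

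Cysteine supply and disposal had 14 genes tested, and lipid raised 3 and lowered 5 (median −0.17, 57.1% beside 47.5%). *Mat2a*, which makes S-adenosylmethionine, rose by 0.64 (SE 0.05), and *Bhmt*, which returns homocysteine to methionine, fell by 0.49 (SE 0.12). *Slc38a2*, a carrier of neutral amino acids, fell by 0.49 (SE 0.04) with lipid and rose with itaconate, by 0.27 without lipid (SE 0.04, edgeR, adjusted p = 0.00115) and by 0.19 with it (SE 0.04, adjusted p = 0.0193). *Slc3a2*, the partner chain of Slc7a11 in the exchanger, rose with lipid by 0.29 (SE 0.04, adjusted p = 3.43e-05), and it is named here for that role. With itaconate present lipid raised 3 and lowered 8 (78.6% beside 47.0%). Without the replicate letter the shares were 42.9% beside 35.5% and 50.0% beside 34.2%, and *Bhmt* was no longer called (adjusted p = 0.329).

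Glutathione breakdown and recycling had 8 genes tested, 2 higher and 2 lower with lipid (median 0.03), and this share of 50.0% is near the 47.5% of all genes. *Chac1*, a cytosolic enzyme that degrades glutathione, rose by 0.74 (SE 0.14), *Ggct* of the same cycle rose by 0.52 (SE 0.14), and the aminopeptidase gene *Lap3* fell by 0.24 (SE 0.04). With itaconate present 2 were higher and 1 lower (37.5% beside 47.0%). *Chac1* was not called there (0.27, edgeR, adjusted p = 0.114). Itaconate alone lowered *Cndp2*, a dipeptidase, by 0.26 (SE 0.05, edgeR, adjusted p = 0.0127), and added to lipid it raised *Anpep*, an aminopeptidase, by 0.19 (SE 0.04, adjusted p = 0.0322). Of 12 carriers of glutathione and its conjugates, lipid raised 2 and lowered 4 (median −0.08), again 50.0% and near the share of all genes, among them *Slco1a4*, an uptake carrier of organic anions, at −0.52 (SE 0.15), *Abcc3*, an exporter of the sinusoidal membrane, at 0.40 (SE 0.04) and *Abcc2*, the exporter into bile, at −0.37 (SE 0.05). With itaconate present 2 were higher and 4 lower (50.0% beside 47.0%). *Slco1a4* was not called there (−0.33, edgeR, adjusted p = 0.0767), except without lipid + itaconate replicate B (0.0430). The call of *Slco1a4* with lipid alone was lost without the replicate letter (adjusted p = 0.391).

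Selenoprotein synthesis, which Gpx1 and Gpx4 need, had 12 genes tested. Lipid raised 4 and lowered 3 (median 0.09), which is 58.3% called beside 47.5% of all genes, and 50.0% beside 35.5% without the replicate letter. Among them were *Selenbp2* at −0.43 (SE 0.11) and *Selenbp1* at 0.39 (SE 0.10), which encode selenium-binding proteins rather than enzymes of synthesis, and *Pstk*, a kinase in the making of selenocysteine, at 0.34 (SE 0.07). With itaconate present 3 were higher and 1 lower (33.3% beside 47.0%). *Selenbp1* was not called there (0.21, edgeR, adjusted p = 0.0975). Of the 12 factors and reference targets of Nrf2 and Atf4, 4 were higher and 3 lower with lipid (median 0.01, 58.3% called beside 47.5% of all genes). With lipid in the presence of itaconate 3 were higher and 5 lower (66.7% called beside 47.0%), and without the replicate letter the shares were 33.3% beside 35.5% with lipid alone and 50.0% beside 34.2%. Itaconate alone called none of these 12, beside 4.91% of all genes, and added to lipid it called 1, *Asns* (8.33% beside 2.58%). *Asns*, asparagine synthetase and a target of Atf4, rose with lipid by 0.52 (SE 0.09) and fell by 0.37 when itaconate was added to lipid (SE 0.09, edgeR, adjusted p = 0.0429). *Trib3*, another target of Atf4, rose with lipid by 0.39 (SE 0.05), and *Nqo1*, a reference target of Nrf2, by 0.34 (SE 0.11). Without the letter the lipid calls of *Nqo1* (adjusted p = 0.270) and *Selenbp2* (0.0594) were lost.

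The calls with itaconate in these lists depended on the model and on single libraries, in alternatives added after the data were seen. Without lipid + itaconate replicate B, the changes when itaconate was added to lipid were no longer called for *Slc38a2* (adjusted p = 0.0552), *Prdx1* (0.0585), *Anpep* (0.102) and *Asns* (0.124), while *Sod2* (0.0293) was still called. With only the 8 libraries compared in the fit, none of these 5 changes was called (adjusted p from 0.207 for *Sod2* to 0.267 for *Prdx1*). Of 21 alternatives, the call was kept in 19 for *Sod2*, 15 for *Slc38a2*, 10 for *Anpep*, 9 for *Prdx1* and 5 for *Asns*. With itaconate alone it was kept in 20 for *Slc38a2*, 17 for *Cndp2* and 16 for *Taldo1*, and none of these 3 was lost without that library. There 5 further genes gained a call with itaconate alone, and they are named for that reason, after their values were seen: *Hagh* (0.21, adjusted p = 0.0129), *Selenop* (0.21, 0.0361), *Cdo1* (0.22, 0.0364), *Cebpb* (0.22, 0.0457) and *Secisbp2*, the 1 that was lower (−0.24, 0.0415). Without the replicate letter none of the 8 changes called with all libraries was called (adjusted p from 0.106 to 0.595), and none of the 8 changed sign in any of the 21 alternatives.

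**Figure D4:**
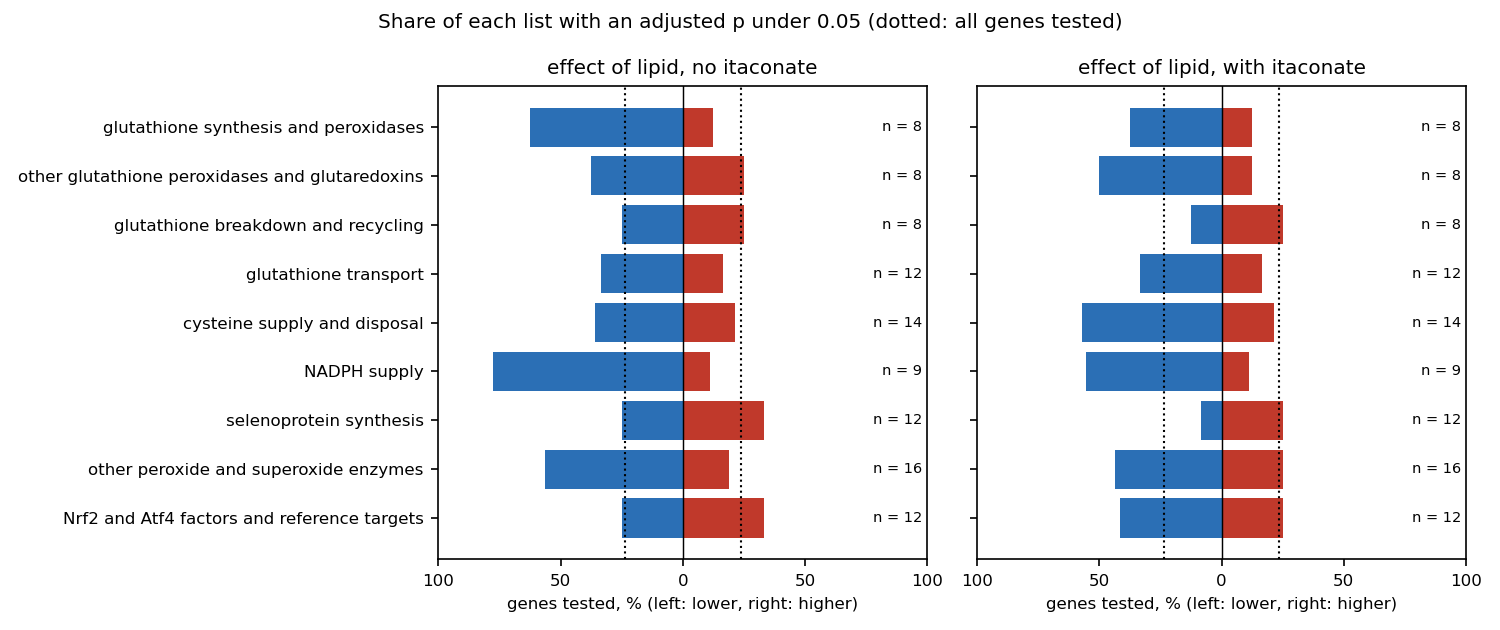
Percentage of the tested genes of each list (n beside each bar) that were lower (blue, to the left) or higher (red, to the right) at an adjusted p under 0.05 with lipid, without and with itaconate; dotted lines give the percentages among all genes tested. NADPH supply reaches farthest to the left without itaconate, with 7 of 9 genes, and the glutathione genes follow with 5 of 8.

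Markers of some other liver cells also moved with lipid. Of 13 macrophage markers, 11 were tested, and lipid alone lowered 7 and raised 1 (72.7% beside 47.5% of all genes), among them *C1qc* at −0.85, *Adgre1* at −0.82 and *Cd5l* at −0.81 on the log2 scale. The 1 that rose was *Cd68*, at 0.43, and it is named for its direction. With itaconate present 9 were lower and 1 was higher (90.9% beside 47.0%). Without the replicate letter lipid alone lowered 4 and raised none (36.4% beside 35.5%), with *Cd68* at an adjusted p of 0.0726, and with itaconate present 8 were lower and 1 higher (81.8% beside 34.2%). Itaconate alone raised *Lyz2* by 0.50 and lowered *Cd68* by 0.24, and added to lipid it lowered *C1qb* by 0.65. These 3 calls were kept without lipid + itaconate replicate B and lost without the replicate letter (adjusted p of 0.279, 0.576 and 0.345), and that of *C1qb* was also lost with only the 8 libraries compared (0.225). The sum of the list was 596 ± 44.6 CPM (SD, n = 4) untreated, 543 ± 56.6 with itaconate, 585 ± 77.2 with lipid and 583 ± 36.5 with both. Most of it was *Cd14* (316 CPM over the 16 libraries) and *Cd68* (218), while *Adgre1*, which encodes F4/80, was at 1.78 CPM and *Clec4f*, the Kupffer cell marker, at 2.19. With lipid, where *Gclc*, *Gpx1* and *Gsr* fell, 7 of the 11 markers were lower, *Cd68* was higher and the sum of the list moved by less than its SD. The part of these markers in those results was not tested. In bulk libraries fewer cells of a type and less RNA per cell cannot be told apart.

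Among the cholangiocyte markers, *Spp1* fell with lipid by 0.97 and *Sox9* by 0.37 on the log2 scale, and both also fell with itaconate present, *Spp1* not without the replicate letter (adjusted p = 0.0809). *Spp1*, the most abundant of them (529 CPM over the 16 libraries), had a mean of 720.9 CPM untreated, 633 with itaconate, 368 with lipid and 394 with both. The defining keratin *Krt19* was at 0.224 CPM, *Krt7* at 0.00459, *Epcam* at 0.298, and *Cftr* had no count in any library. Endothelial markers summed to 22.2 ± 5.78, 19.2 ± 3.81, 24.1 ± 5.56 and 20.9 ± 5.73 CPM untreated, with itaconate, with lipid and with both, with *Cdh5* the most abundant at 5.78 CPM. Of the 7 tested, lipid raised *Lyve1* and lowered *Stab2*, and with itaconate present it lowered *Stab2*, which is 28.6% of these markers beside 47.5% of all genes and 14.3% beside 47.0%. None of these 3 calls was kept without the replicate letter (adjusted p of 0.186, 0.0704 and 0.0900), and the last was also lost without lipid + itaconate replicate B (0.174). Stellate cell and fibroblast markers summed to 22.4 ± 1.32, 23.5 ± 1.56, 19.7 ± 1.91 and 19.9 ± 2.94 CPM in the same order, nearly all of it *Reln*, which fell with lipid in the presence of itaconate but was not called without lipid + itaconate replicate B (adjusted p = 0.0793) or without the replicate letter (0.0824), and the collagen gene *Col1a1* was at 0.0342 CPM. Red blood cell markers summed to 35.4 ± 2.11, 35.98 ± 1.51, 28.4 ± 1.66 and 28.8 ± 4.21 CPM, nearly all of it *Alas2*, which fell with lipid by 0.35 and with itaconate present by 0.30, while *Hbb-bs* was at 0.584 CPM. The part of these cells in the results was not tested.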

How the data were processed

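Reads were trimmed by the authors (Cutadapt 1.18), aligned to mm10 (STAR 2.7.0f) and quantified per gene (RSEM 1.3.1). The deposited values are RSEM's expected counts, which are not normalized and divide a read among the genes it fits, so that 5.41% were not whole. They were rounded for edgeR 4.0.16 (R 4.3.3, with limma 3.58.1) and DESeq2 1.42.0. A filter at a mean of 1 CPM left 11675 of 55450 genes. With TMM scaling, edgeR's quasi-likelihood model held treatment and replicate letter over all 16 libraries, and p-values were adjusted by Benjamini and Hochberg's method over all genes tested, with a threshold of 0.05. The fit was tested on simulated data, in which the planted changes were larger than most of those called for the glutathione genes and no library stood apart. That test does not cover the smaller changes.

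The letters come from the sample labels. Same-letter libraries deviated together from the means of their groups in all 24 pairs (r from 0.143 to 0.468, median 0.263), against a median of −0.114 and a highest value of 0.178 in 72 pairs of other letters, so the letters were taken to pair the libraries (every same-letter r over 0.1). No 2 libraries of a group were alike within counting noise.

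The glutathione genes, the other lists and the markers were chosen with earlier results of these data known, from general knowledge of these pathways. All 9 glutathione genes are named, as are up to 3 called genes of each other list in a comparison, chosen by size of change. Positions and lengths are from GENCODE M21 (GRCm38), in which all 55450 gene identifiers were found. At these totals the 8 genes tested had 1140 to 43137 expected counts per library. Alternatives were no replicate letter, RLE normalization, no filter, DESeq2, only the 8 libraries compared, and each library left out. For the other lists, counts without the letter or without lipid + itaconate replicate B, and all alternatives of the genes called with itaconate, were added after the data were seen. One cholangiocyte marker is not reported here.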

Additional observations from a re-analysis of the deposited data

Results flagged for a closer look

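*Gsr* was the 1 result picked out for a closer look, because its itaconate change had opposite signs in the 2 settings in every letter. Without lipid it was lower with itaconate in 4 of 4 letters (−0.03 on the log2 scale, 95% interval of the change −7.50% to 3.81%), and with lipid it was higher in 4 of 4 (0.17, 6.34% to 19.4%). The difference was 0.20 (SE 0.06). edgeR's test of it gave an adjusted p of 0.290 and DESeq2's 0.0477, and over all alternatives of the interaction the difference ran from 0.17 to 0.23. None of the 36 sets of 4 libraries examined (9 genes in 4 groups) held a library far from the other 3.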

How the results depend on the processing

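The calls of glutathione genes with lipid alone numbered 6 and moved to 3 without the replicate block (4 to 6 when libraries were left out in turn), and those with lipid in the presence of itaconate numbered 4 and moved to 2 (3 to 5). Over all genes, the 5546 calls with lipid alone (47.5%) became 4149 without the block (35.5%) and 4717 to 6003 with libraries left out. With itaconate present the 5483 calls (47.0%) became 3990 (34.2%) and 4530 to 5559. With itaconate alone the count of 1 became 0 without the block, 3 without a filter, 3 with only the 8 libraries compared and 0 to 1 with libraries left out. Itaconate added to lipid gave 3, which became 0 without the block, 0 with only the 8 libraries and 0 to 5 with libraries left out. For the interaction the count of 0 became 1 with DESeq2.

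Over all genes, the 573 calls with itaconate alone became 23 without the block, 1091 without a filter, 1865 with only the 8 libraries and 149 to 1047 with libraries left out (the lowest without itaconate replicate C, the highest without lipid + itaconate replicate C). The 301 with itaconate added to lipid became 9, 725 and 13 under these settings, 512 with DESeq2 and 59 to 889 with libraries left out, the lowest without lipid + itaconate replicate A and the highest without C. The interaction's 1 became 0 without the block, 2 with RLE normalization, 231 without a filter, 36 with DESeq2 and 0 to 8 with libraries left out. The cause of these shifts was not tested.

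Of 832 values of the glutathione genes' changes, 735 kept direction and call, 50 lost a call, 13 gained one and 34 changed sign, none of these called. *Gclm* with itaconate alone (−0.0011) was 0.0017 with RLE, 0.0079 without a filter and 0.0017 with DESeq2, and −0.0256 to 0.0212 with libraries left out. With lipid in the presence of itaconate (0.0086) it was −0.0029 with RLE and −0.0028 with DESeq2, and −0.0438 to 0.0573. With libraries left out, changes with itaconate alone ran from −0.0218 to 0.0348 for *Gss* and from −0.0791 to 0.0282 for *Gpx4*, those with itaconate added to lipid from −0.0025 to 0.0889 for *Gpx1* and from −0.0185 to 0.043 for *Gpx4*, and interactions from −0.0041 to 0.1059 for *Slc7a11*, from −0.0717 to 0.019 for *Gpx1* and from −0.0118 to 0.0948 for *Gpx4*. *Gpx3* was fitted without a filter only.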
